A study of Mus musculus with 2 samples.

Results

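Transcripts of the interleukin-1 (IL-1) family, its ligands, receptors and the proteins that process them, were followed in cells of mouse carotid arteries after wire injury. The 10 genes are the ligands Il1a, Il1b, Il33 and Il18, the receptor antagonist Il1rn, the receptors Il1r1, Il1r2 and Il1rl1, and the processing genes Nlrp3 and Casp1. They were found by symbol among the 27998 genes of the count tables, and all 10 were listed in both libraries. Wire injury denudes the vessel of its endothelial lining and makes the vessel wall thicken from the inside (intimal hyperplasia). Both groups were male C57BL/6J mice without a stated transgene or drug, 8 weeks of age. The IH 2w group was harvested at day 14 and the IH 4w group at day 28 after injury. The series design gives n = 18 for each time, but each time is 1 library, and cells could not be traced to an animal. The labels conflict on the vessel, given as carotid artery and, in one protocol, as aortic grafts, and on whether the left or right side was injured. Uninjured arteries were not analysed here.

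IL-1 alpha and IL-1 beta signal through the type 1 receptor, encoded by Il1r1, together with the accessory protein encoded by Il1rap. The product of Il1rn occupies that receptor without signalling, and the product of Il1r2 binds the ligands as a decoy. IL-33 is stored in the nucleus of stromal cells and acts through the receptor ST2 (Il1rl1), and IL-18 acts through a receptor made by Il18r1 and Il18rap. IL-1 beta and IL-18 are made as precursors that caspase-1 (Casp1) cuts after a sensor such as Nlrp3 has assembled the inflammasome. In injured arteries, IL-1 is known for acting on smooth muscle cells, endothelial cells and fibroblasts.

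The genes lie in few places of the mm10 genome (GENCODE M21). Il1a (chr2:129299610-129309972) and Il1b (chr2:129364570-129371139) are neighbours on the minus strand of chromosome 2, 54.6 kb apart, and Il1rn (chr2:24336853-24351494) is on the plus strand of the same chromosome. Il1r2 (chr1:40074079-40125231), Il1r1 (chr1:40225080-40317257) and Il1rl1 (chr1:40429570-40465415) lie on the plus strand of chromosome 1, in a span of 477.6 kb that also holds Il1rl2, Il18r1 and Il18rap. Il18 (chr9:50554827-50581840) and Casp1 (chr9:5298517-5307265) are on chromosome 9, Nlrp3 (chr11:59541568-59566956) on chromosome 11 and Il33 (chr19:29925114-29960718) on chromosome 19, all on the plus strand. The 150 bases before a start of Il1a, Il1b, Il1rn and Il33 are shown, because the first 3 were highest in the same cells while Il33 was highest in others. For Il33 the start used is the second one listed, which lies inside the gene. They are RefSeq promoters of GRCm38.p6, 5′ to 3′, with capitals for matches to the motifs searched.
Il1a, chr2:129309973-129310122, minus strand: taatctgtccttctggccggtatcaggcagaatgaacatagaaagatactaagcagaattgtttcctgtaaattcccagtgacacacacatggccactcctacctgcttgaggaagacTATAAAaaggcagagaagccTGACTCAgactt
Il1b, chr2:129371140-129371289, minus strand: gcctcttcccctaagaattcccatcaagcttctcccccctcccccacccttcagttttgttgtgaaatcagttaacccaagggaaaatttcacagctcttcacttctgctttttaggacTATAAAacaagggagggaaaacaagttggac
Il1rn, chr2:24336710-24336859, plus strand: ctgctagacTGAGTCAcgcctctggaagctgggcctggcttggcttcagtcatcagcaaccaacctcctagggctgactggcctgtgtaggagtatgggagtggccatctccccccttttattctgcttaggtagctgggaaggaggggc
Il33, chr19:29945640-29945789, plus strand: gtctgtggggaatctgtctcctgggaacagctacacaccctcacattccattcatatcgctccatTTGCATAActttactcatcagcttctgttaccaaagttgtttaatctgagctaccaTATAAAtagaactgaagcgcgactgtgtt
The motifs, searched on both strands, were the TATA box (TATAAA), the AP-1 motif (TGANTCA), a C/EBP motif (TTGCNNAA) and the NF-kB motif. In windows of 250 bases before to 50 after the start, they were held by 13.6%, 7.81%, 10.8% and 8.46% of all 32851 promoters in the table, and the windows of different motifs could overlap. Il1a and Il1b each held a TATA box, 32 and 31 bases before the start, and Il1a also an AP-1 match. Il1rn held an AP-1 match in the first of its 3 windows. The second of the Il33 windows, shown here, held a C/EBP match and a TATA box. The 150 bases before the first Il33 start (chr19:29924963-29925112), not shown, held no match to any of the motifs. TATA box matches were also found in the first Il33 window, 203 bases before the start, in the Il18 window and in the third Il1rn window. The first windows of Il1r1 and Il1rl1 held C/EBP matches too. An NF-kB match was found in 1 of 2 Nlrp3 windows and in 1 of 2 Il1r1 windows. A match describes letters only, not a bound site.

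The 2-week library held 5864 barcodes and 78773018 UMIs (unique molecular identifiers, which count transcripts), and the 4-week library 8565 barcodes and 83753250 UMIs. After filtering, 5172 and 7460 cells remained, with medians of 11799 and 8728 UMIs, in 32 clusters. Of these, 29 carried the markers of 13 cell classes, named "-like" because the names rest on markers, and 3 stayed unnamed. The make-up of the libraries differed. Macrophage-like cells were 21.2% of kept cells at 2 weeks and 3.61% at 4 weeks, neutrophil-like cells 4.00% and 0.40%, fibroblast-like cells 20.2% and 39.8%, and B cell-like cells 0.83% and 19.5%. Thymocyte-like cells made up 31.9% and 11.1%, and parathyroid-like and airway epithelial-like cells were also present, so the samples held more than vessel wall. The libraries shared 8 barcodes, 6 of them kept. Levels are given as CPM, a gene's UMIs scaled to a common total of UMIs in each class, and compared only within a gene. Intervals are at the 95% level and hold counting error alone. Each time has 1 library, so differences between times have no replicate check and no p-value is given. A gene is called past 2-fold where its CPM at 4 weeks over that at 2 weeks, as a log2 ratio, is at least 1 in size, its interval excludes 0, and the class held at least 20 UMIs of it.

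Over all kept cells, the IL-1 ligands, the antagonist and the inflammasome sensor were lower at 4 weeks, while Il33, Il18, Casp1 and Il1r1 differed by less than 2-fold. Il1b was at 352 CPM at 2 weeks and 38.6 CPM at 4 weeks, a log2 ratio of -3.19 (-3.25 to -3.13). The ratio was -3.88 for Il1a, -3.45 for Il1rn, -3.60 for Nlrp3 and -1.27 for Il1r2. These 5 of the 10 genes were past 2-fold lower and 0 were past 2-fold higher, beside 11.4% of all genes tested past 2-fold lower and 3.6% higher. Il33 was at 90.5 and 118 CPM (0.38), Il18 at 16.5 and 19.2 CPM (0.22), Casp1 at 16.7 and 16.4 CPM (-0.03), Il1r1 at 31.7 and 26.4 CPM (-0.26), and Il1rl1 at 4.23 and 2.47 CPM (-0.78). These values hold the cell make-up and the level per cell together. With the 2-week make-up of classes at both times, the Il1b ratio was -1.07, and with the 2-week levels and only the make-up changed it was -1.85. The same 2 steps gave -1.41 and -1.94 for Nlrp3, and for Il33 -0.21 and 0.60.

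**Figure D1:**
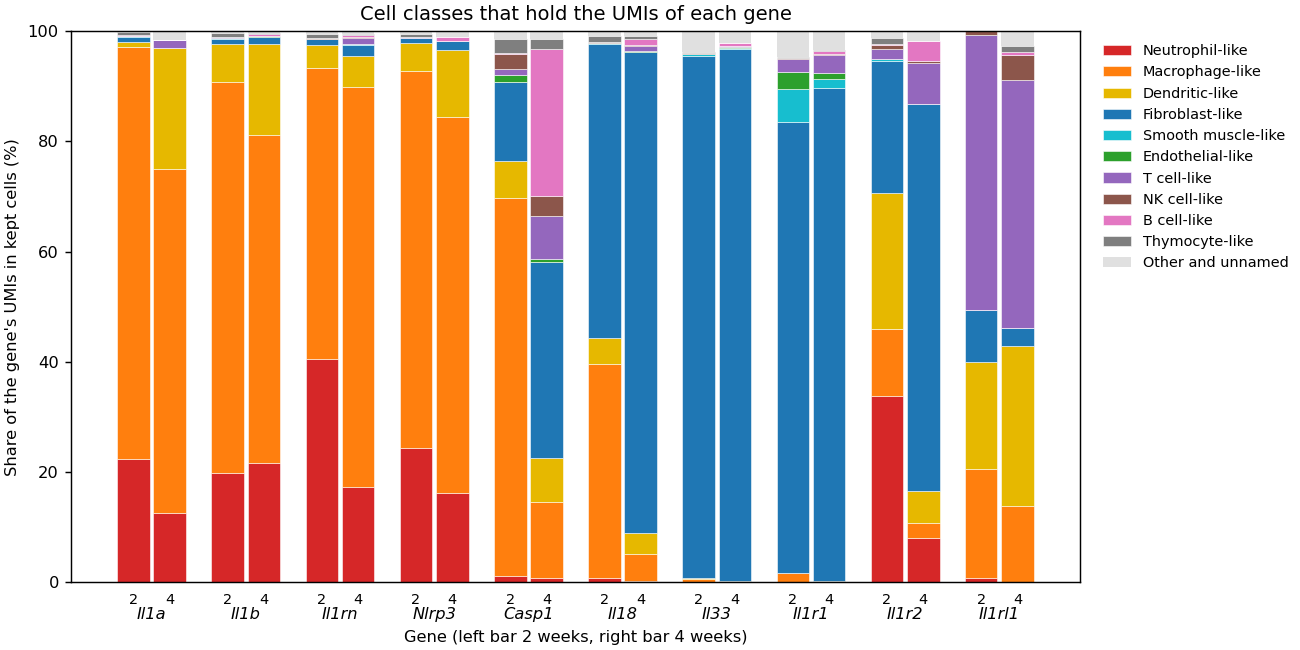
Share of each gene's UMIs in kept cells (y axis, %) that lay in each cell class, with a left bar for 2 weeks and a right bar for 4 weeks. Macrophage-like and neutrophil-like cells filled most of the bars of Il1a, Il1b, Il1rn and Nlrp3, and fibroblast-like cells filled those of Il33 and Il1r1.

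Il1b, the ligand whose precursor is made on stimulation of myeloid cells, was highest in neutrophil-like cells, at 7548 CPM at 2 weeks (207 cells) and 3807 CPM at 4 weeks (30 cells). Macrophage-like cells had 1151 and 580 CPM, and dendritic-like cells 793 and 208 CPM. The intervals of these 3 classes did not overlap at either time. Beside the lower Il1b level of neutrophil-like cells at 4 weeks, their 7 summed markers, such as S100a8 and S100a9, were at 53075 CPM at 2 weeks and 243233 CPM at 4 weeks. Their part in this and the other neutrophil-like values was not tested, and with 30 cells at 4 weeks no ratio is given for the class. All other classes lay far below. Thymocyte-like cells were taken as a reference for the free RNA of each library, which was not measured itself. They had 9.68 and 1.05 CPM, and fibroblast-like cells 9.95 and 0.95 CPM. Because macrophage-like cells were many, they held 71.0% (70.5 to 71.6) of all Il1b UMIs at 2 weeks and 59.5% (57.6 to 61.3) at 4 weeks. Neutrophil-like cells held 19.8% and 21.6%, and dendritic-like cells 6.93% and 16.6%.

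The share of cells with an Il1b UMI, after each cell was thinned to 2700 UMIs, was also highest in neutrophil-like cells, but placed dendritic-like above macrophage-like cells at 2 weeks. It was 89.8% (83.7 to 94.2) at 2 weeks and 15 of 25 cells (38.7% to 78.9%) at 4 weeks in neutrophil-like cells, where 60 and 5 cells were too shallow to be thinned. It was 36.1% and 21.3% in macrophage-like cells and 58.5% and 15.1% in dendritic-like cells, against 3.03% and 0.20% in thymocyte-like cells. Without thinning these shares were 91.8% and 63.3%, 53.2% and 30.1%, and 80.3% and 26.6%.

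**Figure D2:**
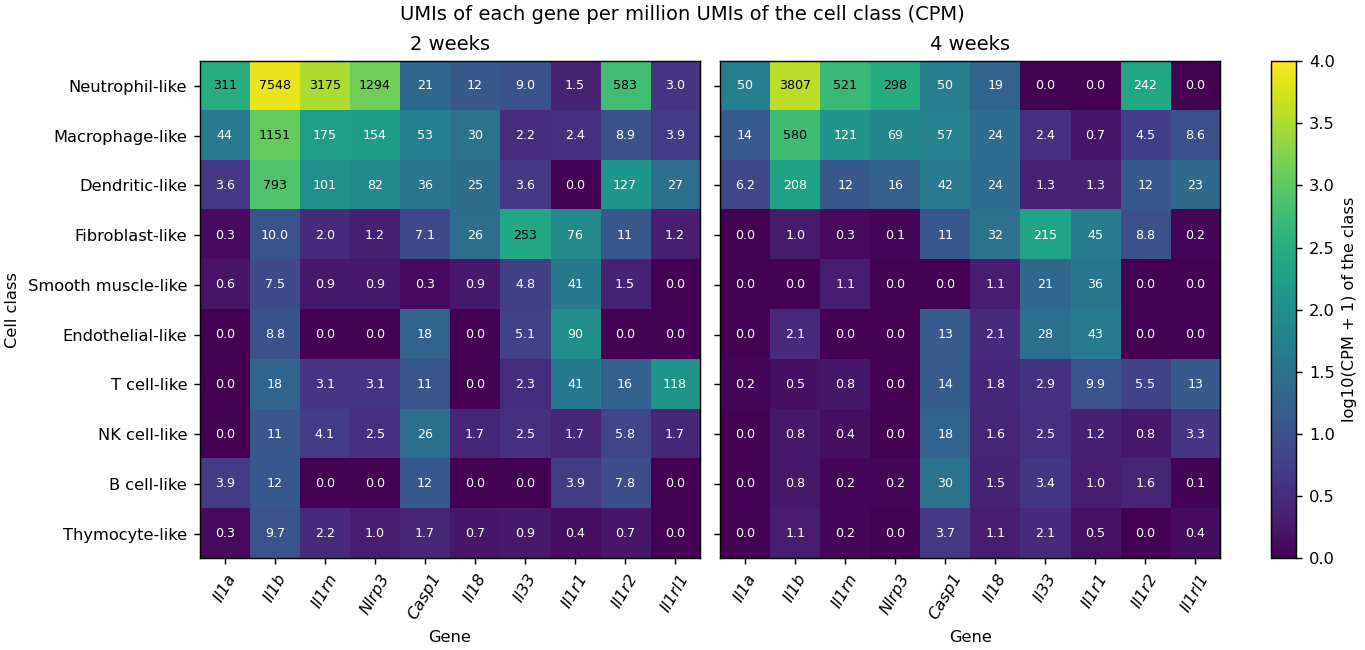
Level of each gene (x axis) in each of 10 cell classes (y axis) as CPM of the class, printed in the cells and coloured on a log10(CPM + 1) scale, at 2 weeks (left) and 4 weeks (right). Neutrophil-like, macrophage-like and dendritic-like rows hold the high values of Il1b, which reach 7548 CPM, and the fibroblast-like row holds those of Il33, 253 and 215 CPM.

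Macrophage-like cells fell into clusters that differed in Il1b. Cluster c6, led by Arg1, Chil3 and Saa3, had 2316 CPM at 2 weeks and 931 CPM at 4 weeks, and cluster c4, led by Folr2, Cd209f and Cd163, markers of tissue-resident macrophages, had 87.7 and 6.34 CPM. An Il1b UMI was found in 70.8% of thinned c6 cells at 2 weeks and 36.3% at 4 weeks, and in 10.9% and 1.79% of c4 cells. The log2 ratio was -1.32 (-1.39 to -1.24) in c6 and -3.79 (-5.11 to -2.74) in c4, where 7 UMIs were counted at 4 weeks, 71.4% of them in 1 cell. Over the class it was -0.99 (-1.06 to -0.92), just short of 2-fold. The class was mostly c4 at 2 weeks (637 of 1098 cells) and mostly c6 at 4 weeks (155 of 269 cells), and with equal weight to both clusters the ratio was -1.36. Summed neutrophil markers were at 291 and 125 CPM in macrophage-like cells, with 6 and 7 of the 7 markers detected, and their part in the Il1b values was not tested.

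Dendritic-like cells had an Il1b log2 ratio of -1.93 (-2.08 to -1.78), from 132 and 169 cells. It was -6.01 (-7.14 to -5.08) when each library was clustered on its own. In that setting the class held 89 cells at 2 weeks and 64 at 4 weeks, so the ratios rest on different sets of cells. In cluster c18, led by Xcr1, Cd209a and Mgl2, Il1b was at 821 and 293 CPM, and in c25, led by Ccl22 and Fscn1, genes of migrating dendritic cells, at 620 CPM (24 cells) and 13.2 CPM (64 cells). A single cell held 24.0% of the class's UMIs at 4 weeks. Summed neutrophil markers in this class were near those of thymocyte-like cells, at 26.5 and 32.3 CPM against 19.5 and 22.2 CPM. Summed macrophage markers moved with Il1b here, from 1603 to 700 CPM, and their part in the result was not tested.

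Il1a, the ligand that is also active as a precursor, lay in the same cells at lower counts. It was at 311 CPM (207 UMIs) at 2 weeks and 49.6 CPM (8 UMIs) at 4 weeks in neutrophil-like cells, and at 44.1 and 13.7 CPM in macrophage-like cells. The macrophage-like log2 ratio was -1.68 (-2.18 to -1.22), and 1 cell held 32.5% of the UMIs at 4 weeks. Dendritic-like cells had 3.60 and 6.19 CPM, with 78.6% of the UMIs at 4 weeks in 1 cell. Per 100 Il1b UMIs there were 3.83 Il1a UMIs in macrophage-like cells and 4.12 in neutrophil-like cells at 2 weeks, with overlapping intervals, and 0.45 in dendritic-like cells. All other classes were at 3.88 CPM or less at 2 weeks.

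Il1rn, which encodes the receptor antagonist, was at 3175 and 521 CPM in neutrophil-like cells, 175 and 121 CPM in macrophage-like cells, and 101.2 and 11.9 CPM in dendritic-like cells. The log2 ratio was -0.53 (-0.70 to -0.37) in macrophage-like cells and -3.08 (-3.72 to -2.50) in dendritic-like cells. Within the macrophage-like clusters it was larger in size than over the class. It was -0.86 (-1.03 to -0.70) in c6 and -1.37 (-2.61 to -0.36) in c4, with 8 UMIs in c4 at 4 weeks. The balance of antagonist to ligand differed by class. Per 100 Il1b UMIs, neutrophil-like cells held 42.1 Il1rn UMIs at 2 weeks and 13.7 at 4 weeks, dendritic-like cells 12.8 and 5.73, and macrophage-like cells 15.2 (14.6 to 15.8) and 20.9 (18.5 to 23.4). UMI counts of 2 genes are not molar amounts, so these values compare classes and times, not proteins.

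Nlrp3, the inflammasome sensor, was at 1294 and 298 CPM in neutrophil-like cells, 154 and 69.4 CPM in macrophage-like cells, and 82.3 and 15.9 CPM in dendritic-like cells. The log2 ratio was -1.15 (-1.36 to -0.94) in macrophage-like and -2.37 (-2.93 to -1.85) in dendritic-like cells. It differed less between the macrophage-like clusters than Il1b did, with 227 and 85.8 CPM in c6 and 87.4 and 42.6 CPM in c4. For Il1b these were 2316 and 931 CPM in c6 and 87.7 and 6.34 CPM in c4. Per 100 Il1b UMIs, c6 held 9.80 and 9.22 Nlrp3 UMIs, and c4 held 99.7 and 671 (302 to 1761). Across 19 class sums, the log2 levels of Nlrp3 correlated with those of Il1rn (Pearson's r 0.99) and Il1b (r 0.98). These points share libraries and free RNA and are a description. By the same measure the genes most like Nlrp3 were Klra2, Mefv and Clec4e, those most like Il1b were Wfdc17, Igsf6 and Cxcl2, and that most like Il1a was Csf3r, the receptor for granulocyte colony-stimulating factor.

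Within macrophage-like cells, Nlrp3, Il1rn and Il1a were found more often in cells with an Il1b UMI than in cells without, with intervals that did not overlap at 2 weeks, while for Casp1 and Il18 the intervals overlapped. At 2 weeks, thinned cells with an Il1b UMI held an Nlrp3 UMI in 40.5% (35.5 to 45.5) of 388 cells, against 22.4% of the 688 cells without. The shares were 30.7% and 7.7% for Il1rn, and 12.6% and 1.0% for Il1a. For Casp1 they were 10.8% and 12.4%, and for Il18 4.6% and 7.1%. Part of this is the difference between the clusters. Within c6 alone the Nlrp3 shares were 44.1% and 24.2%, those of Il1rn 36.2% and 18.9%, and those of Casp1 9.7% and 10.6%. Within c4, where 68 thinned cells had an Il1b UMI, the Nlrp3 shares were 23.5% and 21.9% and those of Il1rn 4.41% and 5.04%, with overlapping intervals. At 4 weeks, c6 cells with Il1b held Nlrp3 in 34.0% of 53 cells and those without in 4.3% of 93.

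Casp1, the protease, was spread over more classes, and its level summed over macrophage-like cells differed little between times. Macrophage-like cells had 52.9 CPM (49.4 to 56.6) at 2 weeks and 57.4 CPM (49.0 to 66.8) at 4 weeks, a log2 ratio of 0.12 (-0.13 to 0.36). Within c4 the ratio was 0.41 (0.06 to 0.75) and within c6 -0.07 (-0.43 to 0.28). Dendritic-like cells had 36.4 and 42.4 CPM, natural killer (NK) cell-like cells 26.4 and 17.6 CPM, and neutrophil-like cells 21.02 and 49.6 CPM from 14 and 8 UMIs. The intervals of dendritic-like, NK cell-like and neutrophil-like cells overlapped in this order at 2 weeks. Fibroblast-like cells had 7.05 and 11.0 CPM, a log2 ratio of 0.65 (0.39 to 0.91), which was largest in cluster c7, at 7.49 and 18.7 CPM. B cell-like cells had 29.9 CPM at 4 weeks, where 1451 cells held 26.8% of all Casp1 UMIs. Macrophage-like cells held 68.6% of Casp1 UMIs at 2 weeks and 13.9% at 4 weeks, and fibroblast-like cells 14.3% and 35.7%.

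In the macrophage-like class all 10 genes had at least 20 UMIs. Il1a and Nlrp3 were past 2-fold lower and Il1rl1 past 2-fold higher, beside 2.26% of all genes in the class past 2-fold lower and 2.61% higher. The median log2 ratio of the 10 genes was -0.76. In the dendritic-like class 8 genes had 20 UMIs, and 4 of them (Il1b, Il1rn, Il1r2 and Nlrp3) were past 2-fold lower and 0 higher, beside 4.98% lower and 3.1% higher of all genes. Of the 4, Il1b and Il1r2 exceeded a 10th of the highest class level, while Il1rn and Nlrp3 did not. In the fibroblast-like class 9 genes had 20 UMIs. The 4 past 2-fold lower (Il1b, Il1rn, Nlrp3 and Il1rl1) were each at 1.00% or less of their level in the highest class, beside 5.5% lower and 1.77% higher of all genes. Thymocyte-like cells had Il1b, Il1rn and Nlrp3 at 9.68, 2.16 and 1.00 CPM at 2 weeks, beside 9.95, 2.00 and 1.22 CPM in fibroblast-like cells, and 1 fibroblast-like cell held 23.0% of the class's Il1b UMIs. The part of free RNA in these ratios was not tested. In thymocyte-like cells 4 genes had 20 UMIs, with 2 past 2-fold lower and 2 higher, all below a 10th of the highest class, beside 1.31% lower and 2.04% higher of all genes. In NK cell-like cells Casp1 alone had 20 UMIs and was not past 2-fold, beside 7.81% lower and 2.11% higher of all genes.

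**Figure D3:**
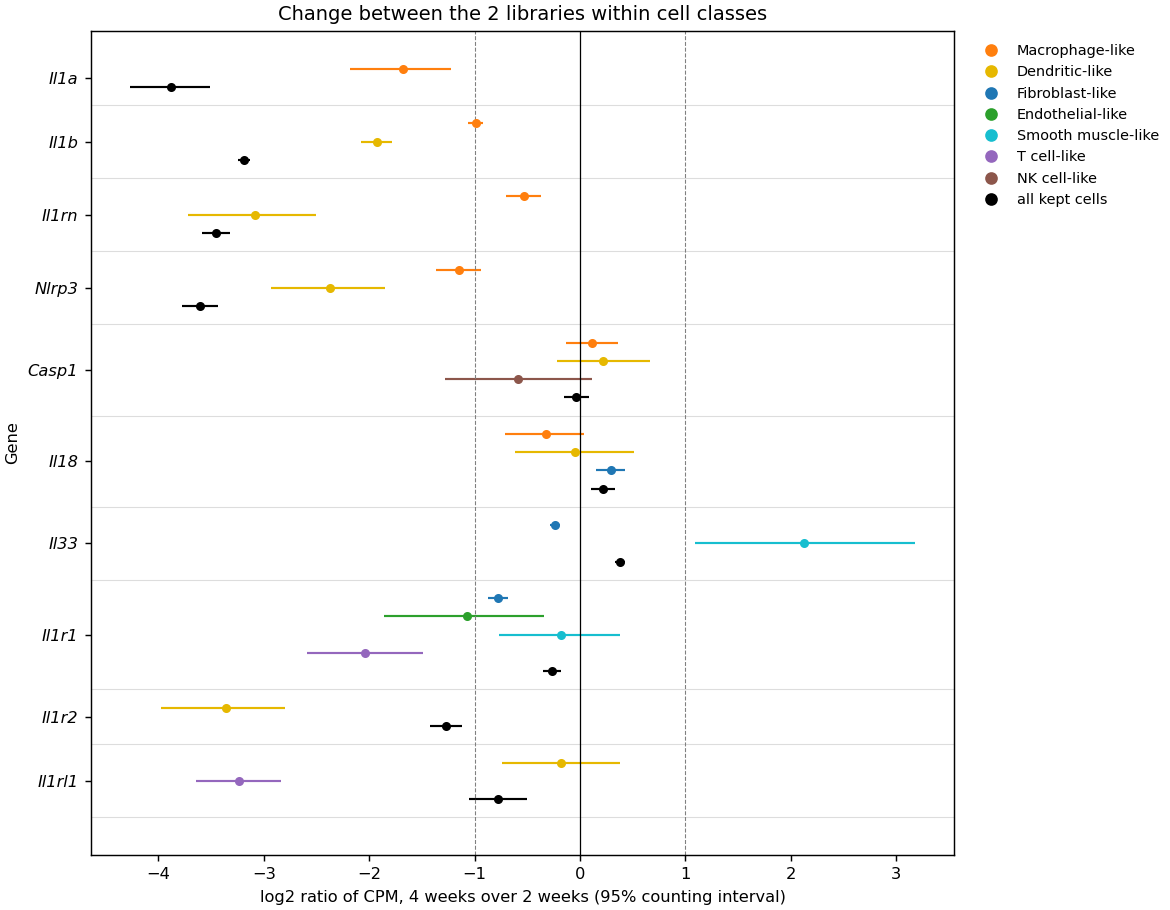
Log2 of the 4-week over the 2-week CPM (x axis) for each gene (y axis) in classes where it reached at least 20 CPM in a library, and over all kept cells (black). Points are ratios, bars are 95% counting intervals, and dashed lines mark 2-fold; Il1b in all kept cells lies at -3.19, and in macrophage-like cells at -0.99.

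Il33, the alarmin of stromal cells, was mostly counted in fibroblast-like cells, which held 94.9% (94.3 to 95.4) of its UMIs at 2 weeks and 96.6% (96.2 to 97.0) at 4 weeks. They had 253 CPM (247 to 259) and 215 CPM (211 to 220), and an Il33 UMI was found in 40.4% and 36.8% of thinned cells. The log2 ratio was -0.23 (-0.28 to -0.19). Each of the 5 fibroblast-like clusters expressed it, and the ratio differed in sign among them. It was lower at 4 weeks in c0 (Pi16 and Pla1a, 307 and 213 CPM), c2 (C7 and Mmp3, 331 and 217 CPM) and c9 (Cilp and Thbs4, 253 and 187 CPM), with intervals below 0. It was higher in c7 (Ptx3, Tnfaip6 and Cthrc1, 217 and 260 CPM, log2 ratio 0.26, 0.14 to 0.38), and in c22 (Apod and Myoc) it was at 271 and 314 CPM with an interval that held 0. At 2 weeks c0 and c2 lay above c7, and at 4 weeks c7 lay above c0 and c2. Over all kept cells Il33 was higher at 4 weeks, beside a share of fibroblast-like cells that was 39.8% at 4 weeks and 20.2% at 2 weeks.

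In the other named classes Il33 was at 27.8 CPM or less, while the unnamed cells together had 107 and 90.4 CPM. Smooth muscle-like cells had 4.77 CPM (16 UMIs) and 20.8 CPM (19 UMIs), a log2 ratio of 2.13 (1.09 to 3.18), with 42.1% of the UMIs at 4 weeks in 1 cell. Of 3 genes with 20 UMIs in that class, Il33 was past 2-fold higher and Il1b lower, beside 2.09% higher and 1.9% lower of all genes. Endothelial-like cells had 5.1 and 27.8 CPM from 4 and 13 UMIs. Thymocyte-like cells, the free RNA reference, had 0.88 and 2.10 CPM, a log2 ratio of 1.25 (0.04 to 2.42).

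Il18, the ligand that acts on NK and T cells, was shared by stromal and myeloid cells at similar levels. At 2 weeks macrophage-like cells had 29.7 CPM (27.1 to 32.5), fibroblast-like cells 26.0 CPM (24.0 to 28.1) and dendritic-like cells 25.2 CPM (19.0 to 32.7), with overlapping intervals. At 4 weeks they had 23.7, 31.8 and 24.3 CPM, and the fibroblast-like log2 ratio was 0.29 (0.15 to 0.43). Among fibroblast-like clusters Il18 was uneven. It was at 46.6 and 52.6 CPM in c0 and 28.1 and 30.3 CPM in c7, but at 11.7 and 11.3 CPM in c2 and 3.13 and 10.7 CPM in c9. Fibroblast-like cells held 53.3% of Il18 UMIs at 2 weeks and 87.3% at 4 weeks, as macrophage-like cells went from 39.0% to 4.88%. The IL-18 binding protein gene Il18bp was at 20.2 and 9.97 CPM in macrophage-like cells, a log2 ratio of -1.02 (-1.62 to -0.47).

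**Figure D4:**
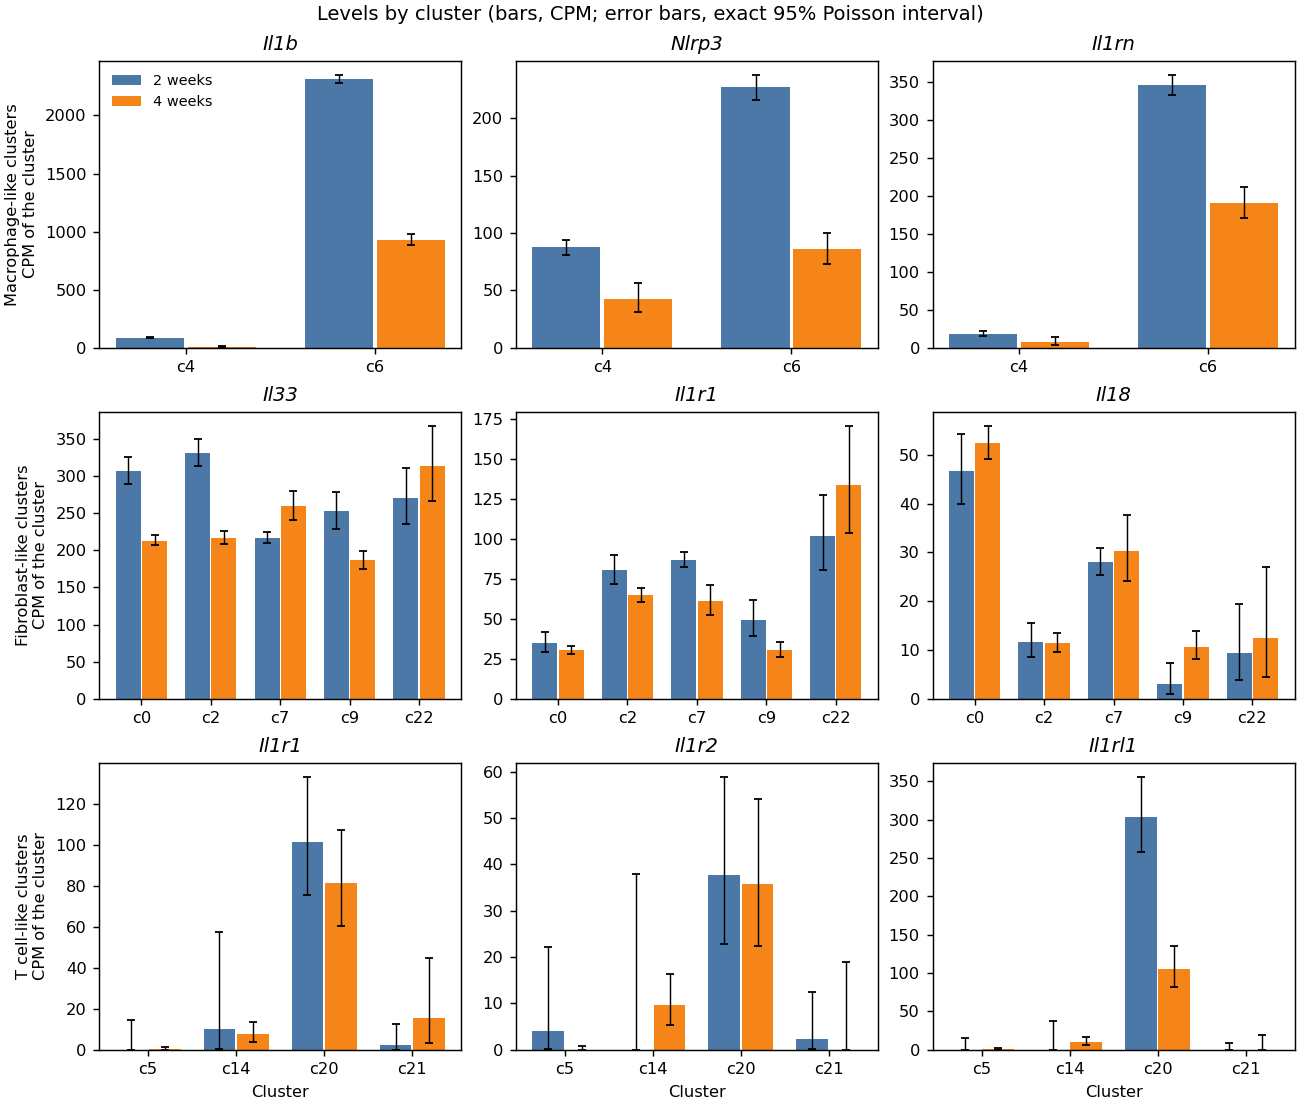
CPM of selected genes (y axes, with 95% Poisson intervals) in each cluster (x axes) of macrophage-like (top), fibroblast-like (middle) and T cell-like cells (bottom) at 2 and 4 weeks. Il1b lies mainly in c6, Il33 lies in all 5 fibroblast-like clusters, and Il1r1 and Il1rl1 of the T cell-like class lie mainly in c20.

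Il1r1, the signalling receptor for IL-1, was highest in stromal and vascular cells and in the T cell-like cluster c20. Endothelial-like cells had 89.7 CPM (70.0 to 113) at 2 weeks and 42.8 CPM (26.1 to 66.0) at 4 weeks, fibroblast-like cells 76.4 CPM (73.0 to 79.9) and 44.7 CPM (42.6 to 46.8), and smooth muscle-like cells 40.9 and 36.2 CPM. T cell-like cells had 40.8 and 9.93 CPM, and c20 within them 101.3 and 81.3 CPM. Endothelial-like and fibroblast-like intervals overlapped at both times. Macrophage-like and neutrophil-like cells, the classes highest in Il1b, had 2.42 and 1.502 CPM at 2 weeks, and thymocyte-like cells 0.39 CPM. Fibroblast-like cells held 81.9% of all Il1r1 UMIs at 2 weeks and 89.4% at 4 weeks.

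In endothelial-like cells Il1r1 lay in the blood vessel cluster c26 (Selp, Sele and Vwf), at 136 and 72.4 CPM, while the lymphatic cluster c29 (Prox1 and Mmrn1) held 1 UMI at 2 weeks and 0 at 4 weeks, which allows up to 15.7 CPM. The endothelial-like log2 ratio was -1.07 (-1.86 to -0.34), from 71 and 20 UMIs, with 55.0% of the UMIs at 4 weeks in 1 cell. Of the endothelial-like cells, c26 took in 42 of 66 at the earlier time and 27 of 53 at the later, and its own intervals (106 to 172 and 44.2 to 112 CPM) overlapped. Il1r1 was the 1 of 2 genes with 20 UMIs there past 2-fold lower, beside 4.97% of all genes lower and 4.09% higher. In smooth muscle-like cells the ratio was -0.18 (-0.77 to 0.38).

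In fibroblast-like cells the Il1r1 log2 ratio was -0.77 (-0.87 to -0.68). Within each cluster it was smaller in size, at -0.32 in c2, -0.51 in c7 and -0.68 in c9 with intervals below 0, and at -0.20 in c0 and 0.40 in c22 with intervals that held 0. With equal weight to each cluster the ratio was -0.14. Cluster c7 had 87.2 and 61.4 CPM and c22 102 and 134 CPM, while c0 had 35.0 and 30.5 CPM. The class was led by c7 at 2 weeks (492 of 1045 cells) and by c0 and c2 at 4 weeks (1343 and 1021 of 2970 cells). Il33 and Il1r1 were found together no more often than apart. At 2 weeks an Il1r1 UMI was found in 14.6% of thinned fibroblast-like cells with Il33 and 16.1% of those without. Il1rap, the accessory receptor chain, was at 12.9 and 9.40 CPM in fibroblast-like cells and highest in neutrophil-like cells, at 185 and 99.2 CPM.

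Il1r2, the decoy receptor, marked neutrophil-like cells, at 583 and 242 CPM, and the dendritic-like cells of 2 weeks. Neutrophil-like cells with an Il1b UMI held an Il1r2 UMI in 50.8% (41.9 to 59.6) of 132 cells at 2 weeks, and 0 of 15 cells without Il1b did, too few to bound that share closely. Dendritic-like cells went from 127 to 12.4 CPM, a log2 ratio of -3.36 (-3.98 to -2.80), with 64.3% of the 28 UMIs at 4 weeks in 1 cell. In that class Il1r1 was not found at 2 weeks and had 3 UMIs at 4 weeks. Fibroblast-like cells had 11.2 and 8.75 CPM and macrophage-like cells 8.86 and 4.47 CPM. Low as it was, the fibroblast-like share of Il1r2 UMIs was 70.2% at 4 weeks. Per 100 Il1r1 UMIs, fibroblast-like cells held 14.6 (12.8 to 16.6) Il1r2 UMIs at 2 weeks and 19.6 (17.4 to 22.0) at 4 weeks. Cluster c0 was highest, with 29.1 and 39.6, and smooth muscle-like cells held 3.65 at 2 weeks.

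Il1rl1, which encodes the IL-33 receptor ST2, was rare. It had 306 UMIs in kept cells at 2 weeks and 182 at 4 weeks. T cell-like cells had 118 CPM (99.9 to 138) and 12.5 CPM (9.96 to 15.6), dendritic-like cells 26.5 and 23.4 CPM, and macrophage-like cells 3.89 and 8.59 CPM. Fibroblast-like cells, the source of Il33 UMIs, had 1.18 and 0.15 CPM. The T cell-like log2 ratio was -3.23 (-3.64 to -2.84). It holds a change of clusters: c21 and c20 led the class at 2 weeks (105 and 78 of 238 cells), and c5 at 4 weeks (585 of 962 cells). All 153 UMIs at 2 weeks and 65 of 82 at 4 weeks were in c20, whose leading genes include Il17a, Areg and Klrg1, at 304 CPM (258 to 356) and 106 CPM (81.5 to 135). Within c20 the ratio was -1.52 (-1.97 to -1.10). Cluster c20 took its T cell-like name from the list of regulatory T cells, yet Foxp3 was found in 17.9% and 6.45% of its cells. The best list of another cell type, type 2 innate lymphoid cells, was met to 71.4%. A Cd3e UMI was found in 25.0% of c20 cells with Il1rl1 at 2 weeks, so these T cell-like values may hold lymphoid cells other than T cells. The c14 cluster, led by Izumo1r, Il21 and Foxp3, had 10.4 CPM at 4 weeks.

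Of 6 genes with 20 UMIs in T cell-like cells, 4 (Il1b, Il1r1, Il1r2 and Il1rl1) were past 2-fold lower and 0 higher, beside 10.7% of all genes in the class lower and 2.12% higher. Of the 4, Il1r1 and Il1rl1 exceeded a 10th of the highest class level, while Il1b (18.5 and 0.46 CPM) and Il1r2 did not. The median of all genes in this class was itself at -0.24. For Il1r1 the class ratio was -2.04, while within c20 it was -0.32 (-0.91 to 0.27). For Il1r2, c20 had 37.7 and 35.8 CPM.

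Within c20, UMIs of the receptors for IL-1 and IL-33 were found in separate cells. At 2 weeks 24 of 78 cells had an Il1rl1 UMI, 29 had an Il1r1 UMI, and 0 had both. At 4 weeks the numbers were 17, 32 and 0 of 93 cells. A count of 0 allows a share of up to 3.85% and 3.23% of cells with UMIs of both, taken as 3 cells of the total, and does not limit the share of cells that express both. Many of the cells with Il1rl1 carried Gata3, Areg and Klrg1, which are known from type 2 innate lymphoid cells and regulatory T cells. At 2 weeks, 95.8% had a UMI of Gata3, a transcription factor of type 2 lymphocytes, 83.3% of Areg, which encodes the growth factor amphiregulin, 79.2% of Klrg1, and 16.7% of Il5. Il13 was found in 1 of these 24 cells. Cd3e, a chain of the T cell receptor complex, was found in 25.0%, and Foxp3, the factor of regulatory T cells, in 29.2%. Of the 54 cells without Il1rl1, 12 had a UMI of Gata3, 7 of Areg, 5 of Klrg1 and 7 of Foxp3. Between cells with and without Il1rl1 the intervals overlapped for Foxp3, but not for Gata3, Areg and Klrg1. Il17a, Cd163l1 and Il23r were each detected in 0 of 24 cells, which allows up to 12.5% of cells with a UMI. At 4 weeks Foxp3 was found in 2 of 17 cells with Il1rl1. Il5 and Il13 were each found in 0 of the 17, which allows up to 17.6%.

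The cells with Il1r1 carried genes of IL-17-producing T cells. At 2 weeks Cd3e was found in 82.8% of them, Il18r1 in 86.2%, Cd163l1 in 69.0%, Il17a in 51.7% and Il23r in 41.4%, but Gata3 in 20.7% and Klrg1 in 6.9%. At 4 weeks Gata3 was found in 88.2% of cells with Il1rl1 and 46.9% of cells with Il1r1, Areg in 47.1% and 3.13%, Klrg1 in 76.5% and 6.25%, Il17a in 0% and 31.2%, and Il18r1 in 5.88% and 93.8%. These shares are of cells at full depth. The marker genes took part in forming the cluster, while Il1r1 and Il1rl1 did not.

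**Figure D5:**
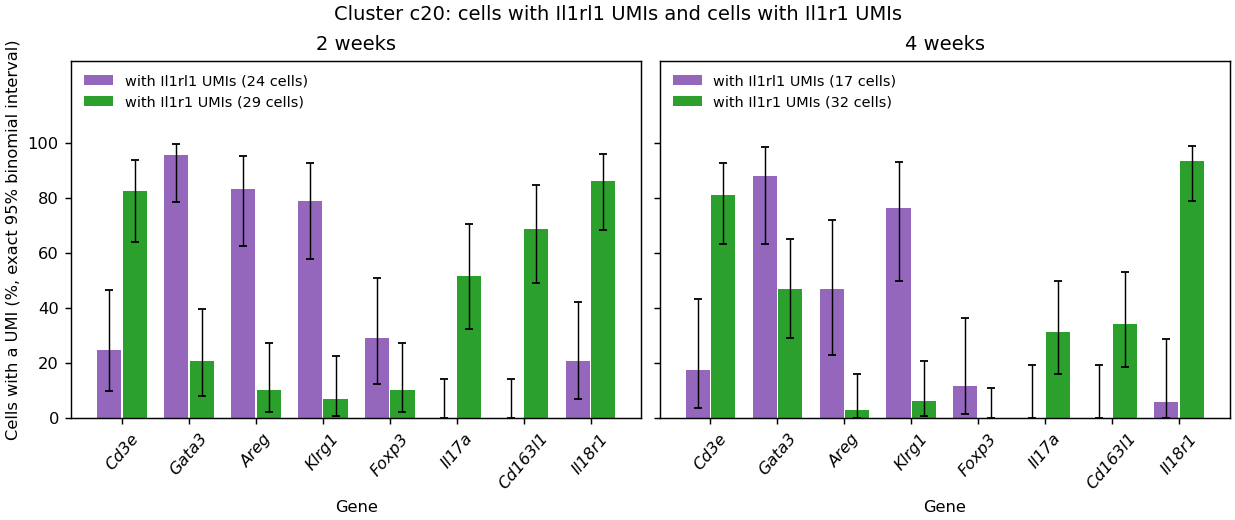
Share of cells with a UMI of each marker gene (y axis, %, with exact 95% binomial intervals) among cells of cluster c20 with Il1rl1 UMIs (purple) and with Il1r1 UMIs (green), at 2 and 4 weeks. Gata3, Areg and Klrg1 stand higher in the cells with Il1rl1, and Cd3e, Il17a, Cd163l1 and Il18r1 in those with Il1r1.

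In myeloid cells Il1rl1 was also uneven. In dendritic-like cells all UMIs were in c18, at 30.9 and 33.6 CPM, with 0 in c25. In macrophage-like cells the log2 ratio was 1.14 (0.41 to 1.84). Most of these UMIs were in c4, at 6.34 CPM (52 UMIs) and 18.1 CPM (20 UMIs), and c6, the cluster highest in Il1b, had 1.202 and 2.77 CPM. Of thinned macrophage-like cells with Il1rl1, 0 of 18 at 2 weeks and 0 of 10 at 4 weeks had a UMI of Cd3e, and the same counts held for Gata3, which allows up to 16.7% of cells with a UMI at 2 weeks.

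The receptor chains for IL-18 were highest in NK cell-like cells and c20, and Il18rap had overlapping intervals in NK cell-like and neutrophil-like cells at both times. Il18r1 was at 211 and 181 CPM in NK cell-like cells and 284 and 330 CPM in c20. Il18rap was at 134 and 105 CPM in NK cell-like cells, 87.4 and 60.1 CPM in c20, and 110 and 130 CPM in neutrophil-like cells. Of the other ligands of the family, Il1f9 (IL-36 gamma) was a leading gene of the neutrophil-like cluster, at 2532 and 465 CPM, and Il1f6 had 11 UMIs and 1 UMI there. Il1rl2, the receptor chain for IL-36, was highest in fibroblast-like cells, at 23.8 CPM (21.9 to 25.8) and 15.9 CPM (14.7 to 17.2). Sigirr, a receptor that dampens IL-1 family signals, was at 46.2 and 44.2 CPM in T cell-like cells and 35.4 and 34.2 CPM in endothelial-like cells.

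Of 17 other inflammasome genes listed, 14 had 20 UMIs in macrophage-like cells, and Casp4 and Nlrc4 were past 2-fold lower, with 0 higher and a list median of -0.25, beside 2.26% lower and 2.61% higher of all genes in the class. Casp4, the sensor of intracellular lipopolysaccharide, was at 125 and 47.1 CPM, a log2 ratio of -1.41 (-1.67 to -1.16). It was also past 2-fold lower in dendritic-like (-1.75), fibroblast-like (-1.81) and T cell-like cells (-1.03). Pycard, the adaptor of the inflammasome, was at 194 and 211 CPM in macrophage-like cells and highest in thymocyte-like cells, at 357 and 395 CPM. Gsdmd, whose product forms the pore through which IL-1 beta leaves the cell, was at 58.9 and 44.3 CPM in macrophage-like cells.

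Genes of the signalling cascade below the receptors, 20 listed, all had 20 UMIs in macrophage-like and fibroblast-like cells. In macrophage-like cells 4 were past 2-fold lower and 0 higher (median -0.25), and in fibroblast-like cells 3 lower and 0 higher (median -0.25). Of all genes, 2.26% and 5.5% were past 2-fold lower in these classes. The 3 shared were Nfkbia, Nfkbiz and Tnfaip3, targets and regulators of NF-kB. Tnfaip3 was at 413 and 124 CPM in macrophage-like cells and 59.8 and 18.2 CPM in fibroblast-like cells, where its ratio within c7 was -0.42. Irak3, an inhibitor of the receptor complex, was at 105 and 45.7 CPM in macrophage-like cells. In endothelial-like cells 4 of 14 were lower and 0 higher, beside 4.97% lower of all genes, with Nfkbiz at 552 and 218 CPM.

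A list of 23 response genes covered the IL-1 family as a whole, with Il5, Il13, Areg and Ifng among them, and not IL-1 alone. In fibroblast-like cells 17 of the 23 had 20 UMIs, and 9 were past 2-fold lower and 0 higher. Their median log2 ratio was -0.93, beside 5.5% lower and 1.77% higher of all genes. Of the 9, 5 exceeded a 10th of the highest class level, below which values were treated as possible free RNA. Il6 was at 49.9 and 12.2 CPM (-2.04), the neutrophil chemokine Cxcl1 at 1140 and 443 CPM (-1.36), Cxcl5 at 106 and 38.0 CPM (-1.47) and the monocyte chemokine Ccl7 at 302 and 112 CPM (-1.43). These class values hold the change of clusters, since c7, of which Cxcl5 is a leading gene, was 492 of 1045 cells at 2 weeks and 109 of 2970 at 4 weeks. Within c7 the Il6 ratio was -1.46 (-1.88 to -1.07) and that of Cxcl1 -0.20 (-0.26 to -0.15), while Cxcl5 was higher at 4 weeks (1.26, 1.16 to 1.37), as was Ccl7 (0.38, 0.30 to 0.47). Il6 was lower in all 5 fibroblast-like clusters, with ratios of -1.29 to -1.90. In macrophage-like cells 10 of 17 were lower and 2, Mmp3 and Mmp13, higher (median -1.41), beside 2.26% lower and 2.61% higher of all genes. The lower genes included Saa3, a leading gene of c6, at 7282 and 651 CPM and Ptges, which makes prostaglandin E2, at 77.3 and 10.7 CPM. In endothelial-like cells 4 of 10 were lower and 2 higher (median -0.72), beside 4.97% lower and 4.09% higher of all genes. The adhesion gene Sele was at 557 and 182 CPM and Csf3 at 212 and 2.14 CPM from 168 UMIs and 1 UMI, while Vcam1 was higher, at 188 and 442 CPM. Many of these genes respond to other stimuli too, and the median over all genes tested in these classes was within 0.1 of 0.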

How the data were processed

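Cells came from injured arteries after perfusion, separation of adventitia from media and neointima, papain digestion and sorting of live Hoechst-positive cells, per the labels' protocols. The authors deposited UMI counts per gene and barcode for 1 droplet library at each time, which per the file headers come from Cell Ranger 4.0.0 and per the submitters' processing notes use mm10. Nothing says how many animals gave cells to each library.

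Barcodes below 300 genes or 500 UMIs and those above 10% mitochondrial UMIs were dropped, which removed 54 and 383 barcodes at 2 weeks and 73 and 483 at 4 weeks. The highest Scrublet scores were removed as doublets, at 0.8% per 1000 barcodes (255 and 549 barcodes); Scrublet's own limit called 81 and 313. Cells were clustered with scanpy 1.11.5 (2000 variable genes, 30 principal components, 15 neighbours, Leiden resolution 1) and named from 31 marker lists, with the 10 genes left out of both. Levels have exact Poisson intervals, shares Clopper-Pearson intervals (limits for a count of 0 are 3 counts of the total), and ratios exact conditional binomial intervals. Ratios needed 50 cells of a class in each library, and levels 10. The ratio step was tested on simulated data. All 10 genes are named, with others from 5 lists of 73 genes, and 3 genes most like each by Pearson's r of log2(CPM + 1) over 19 class sums, for genes with at least 50 UMIs. The genes and lists were chosen with earlier results of these data known. Promoters are from RefSeq (GRCm38.p6), and 27645 of 27998 genes matched GENCODE M21. Alternatives changed depth scaling, filters, clustering, doublets and cluster weights.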

Additional observations from a re-analysis of the deposited data

Results flagged for a closer look

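Il33 differed in direction between stromal classes, a difference that was not tested. The log2 ratio of 4 over 2 weeks was -0.23 (-0.28 to -0.19) in fibroblast-like cells and 2.13 (1.09 to 3.18) in smooth muscle-like cells, from 16 and 19 UMIs in the latter. The smooth muscle-like level was below a 10th of that in the highest class, where values were treated as possible free RNA, and a single cell held many of its UMIs at 4 weeks. Il33 was also higher at 4 weeks in thymocyte-like cells, the free RNA reference. Il1rl1 differed in direction too, at -3.23 (-3.64 to -2.84) in T cell-like cells and 1.14 (0.41 to 1.84) in macrophage-like cells. Its macrophage-like level was likewise below a 10th of the highest class, and this difference was not tested either.

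Cells of 3 clusters that were given no name also held these genes. Cluster c16, led by Fmod, Comp and other genes of tendon and cartilage matrix, had Il33 at 107 CPM at 2 weeks and 66.8 CPM at 4 weeks, Il1r1 at 38.0 and 34.9 CPM, and Il1b at 19.3 CPM (39 UMIs) at 2 weeks. Cluster c17, of shallow cells led by C7 and Ccl19, had Il33 at 172 CPM (22 UMIs) and 189 CPM (87 UMIs). Cluster c24, led by haemoglobin genes together with the macrophage genes C1qa and Ms4a7, had Il1b at 483 CPM (333 to 679) at 2 weeks, from 33 UMIs in 57 cells.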

How the results depend on the processing

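Of 42 finite ratios by class with at least 20 UMIs, 21 were past 2-fold, and 179 of their 180 values under the alternatives kept their direction. The exception was Il1r2 in T cell-like cells, at 0.049 with equal weight to each cluster. Il1b in smooth muscle-like cells, with 25 UMIs at 2 weeks and 0 at 4 weeks, had no finite ratio and is not among the 42. Many of the 21, such as all those of fibroblast-like and thymocyte-like cells, were below a 10th of the highest class and may be free RNA. Equal cluster weight also gave -2.24 for Il1b in dendritic-like cells, -1.36 for Il1b in macrophage-like cells, -0.14 for Il1r1 in fibroblast-like cells and -1.38 for Il1rl1 in T cell-like cells. With each library clustered on its own, Il1b was at -6.01 in dendritic-like cells, from 89 and 64 cells in place of 132 and 169. It was at -1.26 in macrophage-like cells, and Il1rl1 was at -5.02 in T cell-like cells. The 2-week shares were then 73.0% of Il1b UMIs in macrophage-like and 95.9% of Il33 UMIs in fibroblast-like cells. Without the cell richest in Il1b in each library the ratio was -2.26 in dendritic-like and -1.17 in macrophage-like cells. With no doublet removal it was -1.07 in macrophage-like cells and -3.26 over all kept cells, Il1rl1 in T cell-like cells was -3.83, and the Il33 share 89.2%; the larger dendritic cluster then went unnamed, and too few dendritic-like cells were left for a ratio. The Il33 share was 91.6% at Leiden resolution 2 and 92.4% with the 10 genes clustered, where Il1rl1 in T cell-like cells was -3.76. Without thymocyte-like, parathyroid-like and airway cells, the ratio over all kept cells was -3.52 for Il1b and 0.042 for Il33, and with the 2-week make-up -1.07 and -0.21. The number of the 10 genes past 2-fold lower in macrophage-like cells, 2, was 4 with median-of-ratios scaling, 4 with libraries clustered apart and 5 with no doublet removal. The causes were not tested. Leaving out barcodes shared by the libraries was chosen after seeing the data. No paired analysis was possible because each time is 1 library. The number of cells limits the 4-week values of neutrophil-like (30 cells), smooth muscle-like (75) and endothelial-like cells (53).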
